A study of Rattus norvegicus with 4 samples.

Results

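The genes described here are the claudins, the cadherins, the zonula occludens genes and occludin, the membrane and scaffold proteins that hold neighbouring cells of a sheet together. They were taken by symbol from the annotation of the array features, as all genes named Cldn or Cdh followed by a number, Tjp1, Tjp3 and Ocln, leaving out Cldn16 and Cdh5. This gave 42 of 14871 named genes, of which 21 were claudins, 18 were cadherins and 3 were Tjp1, Tjp3 and Ocln, and they were represented by 75 of 45220 array features. The study measured RNA in kidney allografts of Lew rats that had been given an ApoE-mimetic peptide at 6 mg/kg body weight, or a control peptide, by daily intravenous injection from the day of transplantation. Grafts were removed on day 4, so every sample, controls included, came from an allogeneic graft in a recipient treated with a peptide. The sources used here do not give the donor strain or the animals' age, and whole graft slices were used, so the RNA is that of graft and infiltrating cells together. Each of 4 Agilent arrays (replicates 1 to 4, labelled as biological) held 1 ApoE-mimetic sample and 1 control sample, with ApoE-mimetic RNA in Cy5 on replicates 1 and 3 and in Cy3 on replicates 2 and 4.

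In tubular epithelium, claudins form the strands of the tight junction, and the set of claudins in a nephron segment decides whether the path between cells is a barrier or a pore for selected ions. Occludin lies in the same strands, and the zonula occludens proteins tie the strands to the actin cytoskeleton. Classical cadherins bind their like on the next cell through calcium-dependent extracellular repeats and are linked through catenins to actin. Injured tubules are known to lose polarity and junction proteins, and the kidney is known for a cadherin of its own, Ksp-cadherin.

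Each deposited value was taken as the log2 ratio of the channels of an array, and the log base is not stated. The values below are turned to ApoE-mimetic over control by the labelled dyes, with columns read as Cy5 over Cy3, and are given in log2 units relative to the median named gene of the array. Neither the labels nor the values settle that reading. Replicates 1 and 3, of the same labelled orientation, ran against each other, with Pearson's r at -0.657 over the 13363 features called clear below and at -0.238 over all features. Over the clear features as deposited, r was -0.43 for replicates 1 and 2, 0.42 for 2 and 3 and 0.39 for 1 and 4. It was -0.04 for 2 and 4 and -0.27 for 3 and 4. Turning reverses r between unlike orientations, so over the clear features replicates 1 and 2 then ran together, as did 3 and 4. Over all features as deposited, r was only -0.13 for replicates 1 and 2 and -0.009 for 3 and 4. If the columns had already been turned by the authors, the signs of replicates 2 and 4 below are reversed, and if Cy3 is the numerator all signs are. A value shared exactly by more than 2 features of an array was taken as a sign of a dim or saturated spot, and a feature free of this on all 4 arrays is called clear here. Of the 75 junction features 25 were clear, and 16 of the 42 genes had at least 1. Replicate 4 stood apart, with an SD of 1.26 over all features against 0.87 to 0.89 on the other arrays and a trend across its grid columns from a median of -0.80 in the first 10 to 0.40 in the last 10. No intensities were used here, so levels of different genes cannot be compared, and with only 4 arrays the precision is low.

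The junction genes measured by clear features lay on the control side on replicates 1 and 2 and on the ApoE-mimetic side on replicate 3. On replicate 1, 15 of the 16 genes were below the median gene of the array, with a median of -0.59. Of all 6731 named genes with a clear feature 4605 were below it there, with a median of -0.20. On replicate 2, 14 of the 16 were below it, with a median of -0.95, against 3154 of the 6731 and a median of 0.03. On replicate 3, 15 of the 16 were above it, with a median of 0.49, against 3237 of the 6731 and a median of -0.02. On replicate 4 the genes were divided, with 8 above and 8 below and a median of 0.07. There 4107 of the 6731 (61.0%) were above it, with a median of 0.10. Their median distance from the median gene, whatever its sign, was 0.71, 0.95, 0.49 and 0.38 on replicates 1 to 4, against 0.32, 0.32, 0.29 and 0.26 for all genes with a clear feature. The junction genes therefore differed between the channels of single arrays, in directions that did not repeat over the 4 pairs. A lower ratio in such bulk samples can mean fewer cells of a type or less RNA per cell, and these cannot be told apart.

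**Figure D1:**
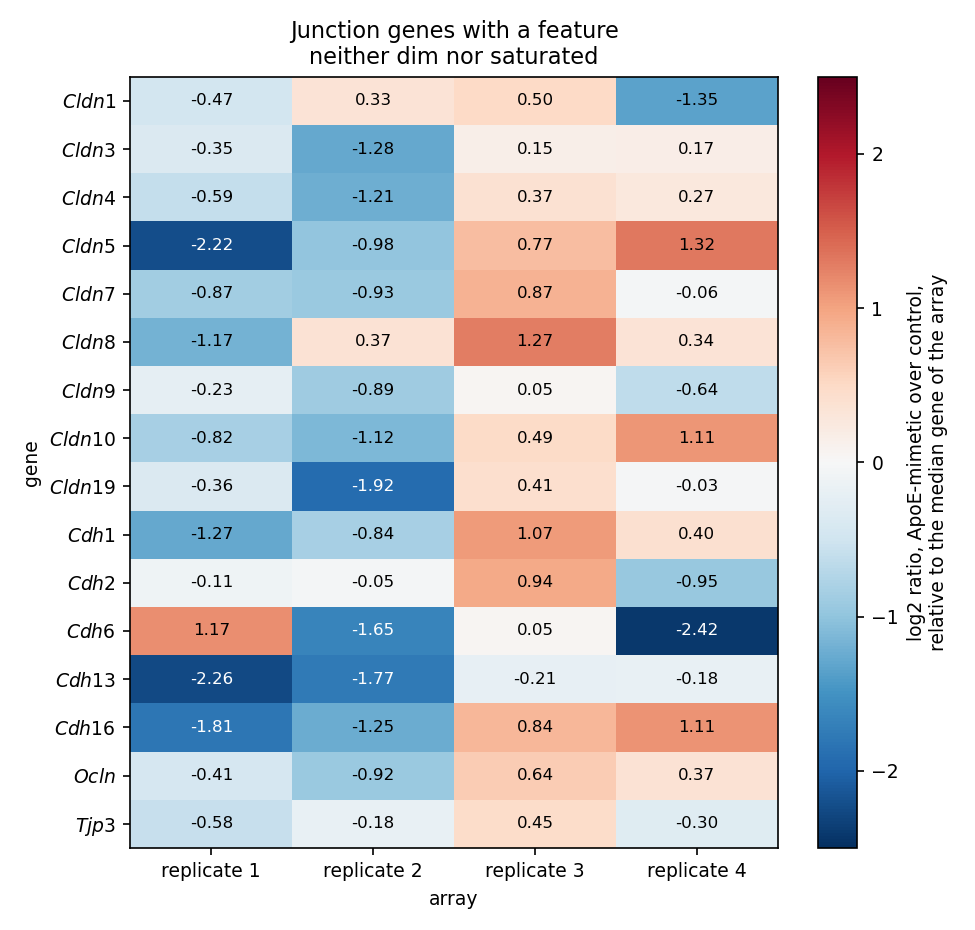
Heat map of the 16 junction genes with a clear feature (rows) on the 4 arrays (columns), each cell giving the mean log2 ratio of the gene's clear features, ApoE-mimetic over control, relative to the median gene of the array. Cdh16, with -1.81 and -1.25 on replicates 1 and 2 against 0.84 and 1.11 on replicates 3 and 4, shows low values on the first pair and high values on the others, a run of signs found in 7 of the 16 genes, whereas Cdh6 has 1.17 on replicate 1 and -2.42 on replicate 4.

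That run of signs, below on replicates 1 and 2 and above on replicate 3, was found in 12 of the 16 genes, and in 25.5% of all named genes with a clear feature. It was chosen for counting after the values had been seen. The 12 genes were Cdh1, Cdh2, Cdh16, Cldn3, Cldn4, Cldn5, Cldn7, Cldn9, Cldn10, Cldn19, Ocln and Tjp3. Some entered through values next to 0, as Cdh2 with -0.11 and -0.05 on replicates 1 and 2 and Cldn9 with 0.05 on replicate 3. With replicate 4 above the median gene as well, the count was 7 of 16, against 17.3% of all such genes. Over all features of each gene the first run was found in 19 of 42 genes, against 16.8% of all named genes, and the second in 9 of 42, against 9.4%. No test was made of these shares, since the run was read from the same values.

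Among the claudins of the distal nephron and collecting duct, Cldn4 and Cldn3 had like values. Cldn4, which forms a chloride path of the collecting duct together with Cldn8, had -0.59, -1.21, 0.37 and 0.27 on replicates 1 to 4. Cldn3, a sealing claudin that lies next to Cldn4 on chromosome 12 in the GRCr8 assembly, had -0.35, -1.28, 0.15 and 0.17. In both genes replicate 2 was the lowest and replicates 3 and 4 were slightly above the median gene. Cldn7, found along the basolateral side of distal cells as well as in the junction, had -0.87, -0.93, 0.87 and -0.06. Cldn8, the partner of Cldn4, had -1.17 on replicate 1 and 1.27 on replicate 3, with 0.37 and 0.34 on replicates 2 and 4. Cldn8 was thus above the median gene on 3 of 4 arrays, and replicate 1 alone was low.

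Claudins that form pores were less completely measured. Cldn10, whose isoforms conduct anions in the proximal tubule and cations in the thick ascending limb, had -0.82, -1.12, 0.49 and 1.11 by its clear feature. Averaged over its 3 features it had -0.41, -0.70, 0.16 and -0.56, so replicate 4 changed sign with the features used. The features cannot be assigned to an isoform here. Cldn19, which with Cldn16 makes the thick ascending limb permeable to calcium and magnesium, had -0.36, -1.92, 0.41 and -0.03. Its low value came from replicate 2. Cldn2, the water and sodium pore of the proximal tubule, had 0.10, -0.28, 0.96 and -0.07, and its 1 feature was not clear. Only replicate 3 lay far from 0 for Cldn2.

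Cldn5, a claudin known from endothelial tight junctions though not from these alone, had some of the widest values, with -2.22, -0.98, 0.77 and 1.32 on replicates 1 to 4. Replicates 1 and 2 were low and replicates 3 and 4 high. Cldn1, a claudin of the parietal cells of Bowman's capsule, had -0.47, 0.33, 0.50 and -1.35 by its clear feature and -0.52, 0.71, 0.72 and -0.10 over 3 features. Its highest and lowest arrays were thus not those of Cldn5. Cldn9, a barrier claudin best known from the inner ear, had -0.23, -0.89, 0.05 and -0.64, and was above the median gene on replicate 3 alone, by a small amount.

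The kidney's own cadherin showed the run of signs most clearly among the cadherins. Cdh16, which encodes Ksp-cadherin of the tubular basolateral membrane, had -1.81, -1.25, 0.84 and 1.11 on replicates 1 to 4, the mean of 2 clear features. Both features of Cdh16 were below the median gene on replicates 1 and 2 and above it on replicates 3 and 4. Cdh1, encoding E-cadherin of distal tubule and collecting duct, had -1.27, -0.84, 1.07 and 0.40 by its clear feature. Its other feature, which was not clear, had 0.19, 0.56, 0.63 and 1.16, so the average over both was -0.54, -0.14, 0.85 and 0.78. The 2 features of Cdh1 thus disagreed in sign on replicates 1 and 2 and shared it on replicates 3 and 4.

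Cdh2, encoding N-cadherin of the rat proximal tubule, was read by 11 features, of which 7 were clear. On replicate 3 all 11 features were positive, from 0.31 to 1.48 with a median of 0.97. On replicate 4, 10 of 11 were negative, from -1.63 to 0.35 with a median of -0.81. On replicates 1 and 2 the features were spread around a median of -0.15 and of -0.05, with 8 of 11 negative on each. The SD over the 11 features was 0.37 on replicates 1, 2 and 3 and 0.57 on replicate 4. The mean of the 7 clear features was -0.11, -0.05, 0.94 and -0.95 on replicates 1 to 4. Of these 7, 3 were positive on replicate 1 and 2 on replicate 2. Cdh2 therefore parted from Cdh16 and Cdh1 on replicate 4, where it lay on the control side under this reading.

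**Figure D2:**
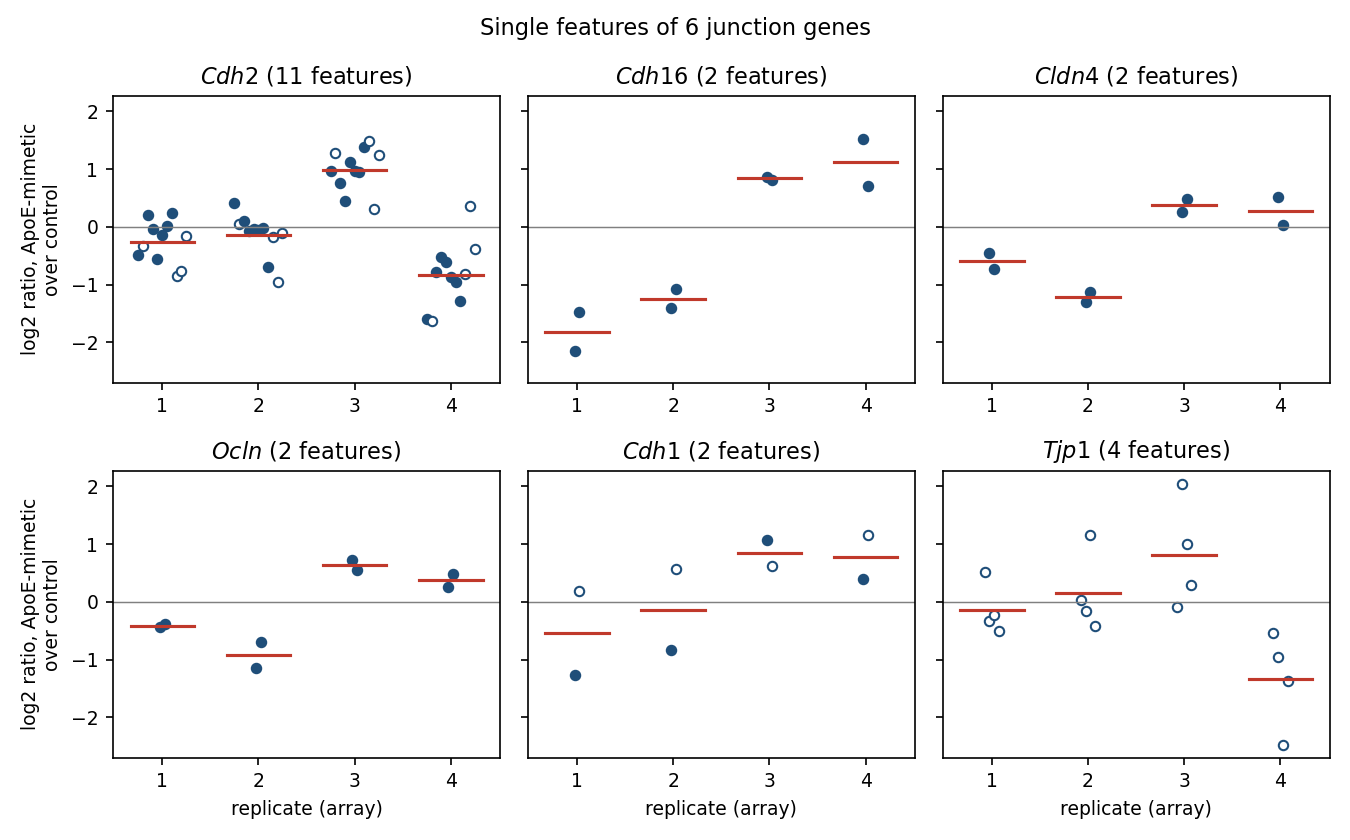
Log2 ratios of single features (points; filled where the feature was clear, open where it was not) of 6 junction genes on the 4 arrays, ApoE-mimetic over control relative to the median gene, with the mean over features as a red bar. The 2 features of Cdh16, Cldn4 and Ocln share their sign on every array, whereas those of Cdh1 differ in sign on replicates 1 and 2 and those of Tjp1 on replicates 1, 2 and 3.

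By clear features Cdh6 and Cdh13 lacked the run of signs that Cdh1, Cdh2 and Cdh16 had. Over both its features Cdh13 had that run, with a value next to 0 on replicate 3. Cdh6, encoding K-cadherin of the developing nephron and the proximal tubule, had 1.17, -1.65, 0.05 and -2.42 by its 1 feature. With the columns as deposited these values, relative to the median gene, were all positive. On replicate 3 the value was next to 0 and was -0.06 before centring. Cdh6 was the only gene of the 16 with 1 sign on all 4 arrays in that reading. There 2.24% of all genes with a clear feature were positive throughout and 10.8% negative throughout. Cdh13, encoding T-cadherin, which has a lipid anchor in place of a cytoplasmic tail and is found on endothelium and muscle, had -2.26, -1.77, -0.21 and -0.18 by its clear feature and -1.98, -2.03, 0.01 and 0.10 over both features. Replicates 1 and 2 were low and replicates 3 and 4 lay near 0. By clear features Cdh13 was the only one of the 16 negative on all 4 arrays, as were 5.16% of all genes with a clear feature, and 0 of 16 were positive on all 4, against 1.99%.

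Of the tight junction proteins outside the claudin family, occludin gave the most regular values. Ocln had -0.41, -0.92, 0.64 and 0.37 on replicates 1 to 4, and its 2 features, both clear, had the same sign on each array and lay at 0.55 and 0.72 on replicate 3. Tjp3, encoding the scaffold ZO-3 of epithelial junctions, had -0.58, -0.18, 0.45 and -0.30. Tjp1, encoding ZO-1, had -0.14, 0.15, 0.81 and -1.34 over 4 features, none of them clear. The features of Tjp1 ranged from -0.10 to 2.04 on replicate 3 and from -2.48 to -0.54 on replicate 4, so replicate 4 was low in all of them.

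Repressors of the Snail and Zeb families are known to act on the E-cadherin gene through E-boxes, and the same element was looked for in the RefSeq promoter sequences (GRCr8), in a table that held one for 30 of the 42 genes. Cdh1 itself was not among them, so its promoter was not searched, nor were those of Cdh16, Cldn2 and Cldn4. The letters CAGGTG were searched on both strands in the 250 bases before the start. They were present in 15.9% of all 33469 promoters, in 6 of the 30 junction promoters and in 4 of the 10 that belong to genes with a clear feature. These 4 were Cldn3, Cldn7, Ocln and Tjp3, all of them among the 12 genes with the shared run of signs. So were 3 of the 6 such promoters without a match. The run was chosen after the values had been seen, so no link between match and run can be read from these 10 promoters, and none was tested. The promoters of Cldn7, which had the most matches, and of Ocln are shown as examples, 5′ to 3′ with the matches in capitals, CACCTG being a match on the other strand. The Cldn7 promoter lies at chr10:55188420-55188669 on the plus strand and holds 4 matches, and that of Ocln at chr2:33441199-33441448 on the minus strand and holds 2.
Cldn7: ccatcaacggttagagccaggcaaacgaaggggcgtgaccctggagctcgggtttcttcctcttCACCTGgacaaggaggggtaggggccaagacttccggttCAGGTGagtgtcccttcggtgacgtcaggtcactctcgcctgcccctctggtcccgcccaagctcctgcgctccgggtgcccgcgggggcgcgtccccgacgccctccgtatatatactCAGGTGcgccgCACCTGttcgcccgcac
Ocln: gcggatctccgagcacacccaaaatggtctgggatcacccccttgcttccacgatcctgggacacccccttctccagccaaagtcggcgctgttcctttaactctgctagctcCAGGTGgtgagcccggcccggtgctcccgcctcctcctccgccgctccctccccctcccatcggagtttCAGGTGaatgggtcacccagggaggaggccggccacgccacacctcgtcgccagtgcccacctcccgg
The promoter of Cldn5, at chr11:95718599-95718848 on the minus strand, is shown beside them because Cldn5 had the same run of signs and no match in this window.
Cldn5: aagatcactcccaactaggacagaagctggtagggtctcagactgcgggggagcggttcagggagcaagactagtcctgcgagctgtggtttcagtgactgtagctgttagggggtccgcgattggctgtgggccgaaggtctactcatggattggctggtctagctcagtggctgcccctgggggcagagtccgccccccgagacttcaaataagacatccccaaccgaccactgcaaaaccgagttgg
The letters AACCGGTT, bound by grainyhead-like factors that are known to act on E-cadherin and claudin genes in mouse epithelium, were in 0 of the 30 junction promoters and in 0.146% of all. A match in these windows is a description of the letters and says nothing of binding in these grafts.

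The remaining junction genes had no clear feature, which by itself does not show that their spots were dim or saturated. Over the 26 genes without a clear feature, the median was 0.11, -0.23, -0.09 and -0.27 on replicates 1 to 4, and 14, 10, 12 and 11 of them were above the median gene. Single values were wide, from -2.23 to 2.68 on replicate 1 and from -2.95 to 1.93 on replicate 4. Besides Cldn2 and Tjp1 they were the claudins Cldn6, Cldn11, Cldn12, Cldn14, Cldn15, Cldn17, Cldn18, Cldn22, Cldn23, Cldn34b and Cldn34e, and the cadherins Cdh3, Cdh7, Cdh8, Cdh9, Cdh10, Cdh11, Cdh19, Cdh20, Cdh22 and Cdh26, with Cdh15 of muscle, Cdh17 of intestine and Cdh23 of the inner ear. Cldn14, which inhibits the Cldn16 and Cldn19 channel of the thick ascending limb, had 2.68, -3.06, -1.67 and -1.92, the widest range of all 42 genes, and is named here for that range. Cdh11, a cadherin of mesenchymal cells, had 4 features and -1.05, -1.65, 0.29 and -0.17 on average.

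In 3 of the 42 genes the value had 1 sign on all 4 arrays, and all 3 were without a clear feature. Cldn34b had 1.07, 0.20, 1.22 and 0.65, and Cldn22 had 0.48, 0.38, 2.85 and 0.71, so both lay on the ApoE-mimetic side. Cdh3, encoding P-cadherin, lay on the control side with -0.80, -0.19, -0.54 and -1.33. Of all named genes, 4.92% were positive on all 4 arrays and 5.13% negative, so 2 and 1 of 42 are near those shares. With the columns as deposited, and after centring, Cdh6 and Cldn2 were positive and Cdh8 and Cdh10 negative on all 4 arrays, against 5.89% and 5.55% of all named genes.

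No junction gene passed the test between the peptides. In limma's model across all named genes, with a treatment and a dye coefficient, 0 of 42 junction genes had an adjusted p under 0.05, as had 0 of 14871 genes in all (0%), and the lowest adjusted p was 0.9999. At an unadjusted p under 0.05, 1 junction gene was found, Cldn34b, against 3.39% of all named genes. Its mean ratio was 0.79 (SE 0.25, n = 4 arrays; limma unadjusted p = 0.027). Cldn22 had a mean of 1.11 (SE 0.46) and an unadjusted p of 0.063 in limma. For both genes an exact sign-flip test (two-sided) gave p = 0.125, the smallest that 4 arrays allow. By clear features alone 1 of 16 genes had an unadjusted p under 0.05, Cldn9, with a mean of -0.43 (SE 0.15; limma unadjusted p = 0.0442), against 1.53% of all genes with a clear feature.

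Among the genes with clear features, Cdh16 had a mean of -0.28 with an SE of 0.63 and an SD of 1.47 over the 4 arrays. Ocln had a mean of -0.08 (SE 0.36) and Cldn4 of -0.29 (SE 0.37). Cldn10 had a mean of -0.38 (SE 0.25) over its 3 features, -0.086 (SE 0.47) by the clear feature and -0.60 with the median over the features. For Cdh1 the mean was 0.24 (SE 0.36) over both features and -0.16 (SE 0.48) by the clear feature. Tjp1 and Cldn2 had means of -0.13 (SE 0.37) and 0.18 (SE 0.28). The smallest unadjusted p in limma among genes with a clear feature, over all their features, belonged to Cdh6, at 0.082 with a mean of -0.71 (SE 0.32). It was followed by Cdh13 with -0.97 (SE 0.53), Cldn9 with -0.43 (SE 0.24) and Cldn10, whose unadjusted p values in limma were 0.131, 0.143 and 0.203. Each of these had an adjusted p of 0.9999 in limma. The SE rests on the spread between arrays of the same labelled orientation and not on the spread over all 4 pairs, which is why that of Cdh6 is small although its values ran from -2.42 to 1.17.

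The mean ratios of the junction genes leaned to the control side under this reading. Of the 42 genes 27 had a negative mean, with a median of -0.14, where 7889 of 14871 genes in all had one and their median was -0.02. By clear features 15 of 16 means were negative, with a median of -0.26, against 3819 of 6731 and a median of -0.03. Replicate 2 was the array on which these genes lay lowest. Without it the treatment coefficient changed sign in 3 of 12 named genes, to 0.08 for Cldn4, 0.24 for Ocln and 0.31 for Cdh16. It stayed negative in Cdh6 (-0.91), Tjp1 (-0.50), Cdh13 (-0.44), Cldn9 (-0.36) and Cldn10 (-0.34). Without replicate 1, 3 of 12 changed sign, to 0.39 for Cdh16, 0.18 for Ocln and 0.11 for Tjp1. Cldn4 (-0.05), Cldn10 (-0.23), Cldn9 (-0.36), Cdh13 (-0.48) and Cdh6 (-0.99) stayed negative there. With 1 replicate left out, this coefficient weights the 2 dye orientations equally and is not the plain mean of the remaining arrays. With the columns as deposited 29 of 42 means were positive, with a median of 0.20, against 7177 of 14863 genes in all and a median of -0.02. By clear features 11 of 16 means were positive in that reading, with a median of 0.19, against 2058 of 6731 and a median of -0.10. Over all features 0 of 42 passed in limma, where the lowest adjusted p was 0.9996. In that reading 2 of 42 genes, Cdh6 with a mean of 1.32 (SE 0.32) and Cdh8 with -0.73 (SE 0.27), had unadjusted p values under 0.05 in limma, at 0.0109 and 0.0477, against 3.07% of all genes. By clear features 1 of 16 did, again Cdh6, against 2.44%. The side to which these genes leaned thus depended on the reading of the columns.

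**Figure D3:**
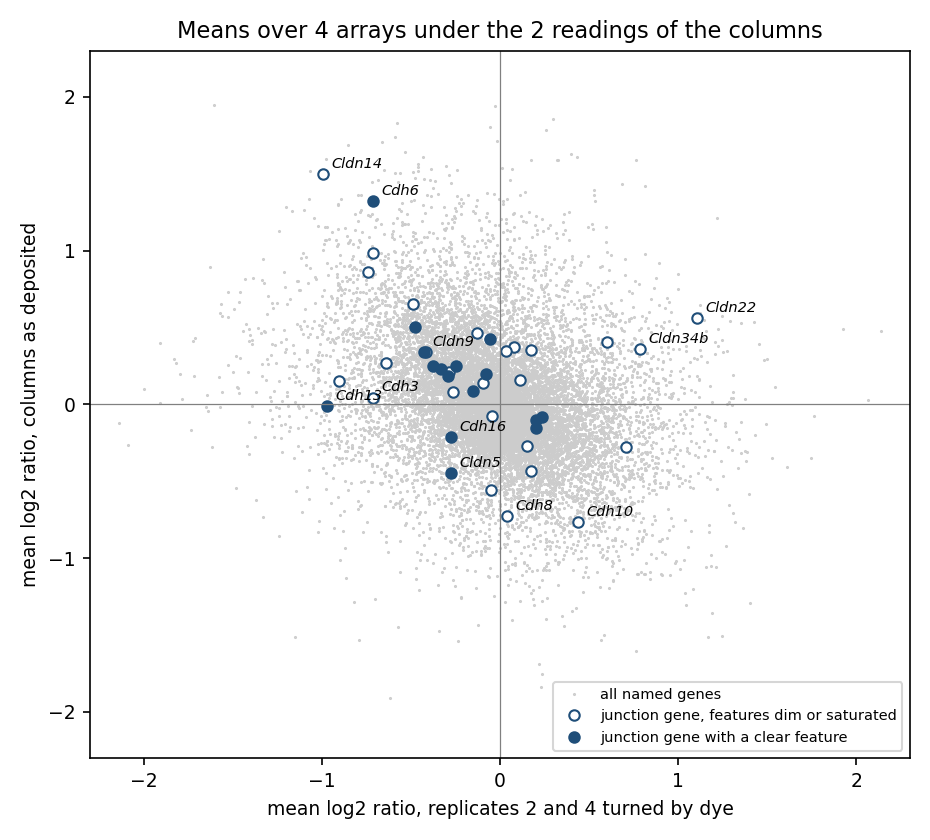
Mean log2 ratio over the 4 arrays of each junction gene (blue; filled with a clear feature, open without) and of all named genes (grey), with replicates 2 and 4 turned by dye on the horizontal axis and with columns as deposited on the vertical axis. Most junction genes sit left of 0 and above 0, inside the cloud of all genes, and Cdh6 lies at -0.71 and 1.32.

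Other components of the junctions, together with regulators and markers of the epithelial state, were measured through 62 further genes in 5 lists. Among the 62, 39 had a clear feature. None passed in limma by adjusted p, 0 of 62, and 3 had an unadjusted p under 0.05, against 3.39% of all named genes. That count was 1 with the columns as deposited and 0 by clear features alone. Of 11 adherens junction partners, 7 had a negative mean, where 7889 of 14871 genes in all had one, and the median was -0.17, or 0.12 with the columns as deposited. Jup, encoding plakoglobin, had -0.77, -0.81, 0.24 and 0.08, and Ctnnd1, encoding the cadherin-binding p120 catenin, had -0.50, -1.002, 0.80 and -1.01. Vcl, encoding the actin linker vinculin, had -0.10, -0.54, -0.03 and -0.87. Jup and Ctnnd1 were thus low on replicates 1 and 2 and above the median gene on replicate 3, like Cdh16. Ctnna1, encoding alpha-catenin and named here as a contrast chosen after its values were seen, was not, with -0.80, 0.36, 0.07 and 1.02.

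Of 21 tight junction partners 17 had a negative mean, and the median was -0.11, or 0.12 with the columns as deposited. Pard6g, a polarity adaptor, was positive on all 4 arrays with 1.20, 1.76, 1.03 and 1.36 (mean 1.34, SE 0.25; limma unadjusted p = 0.00345, adjusted p = 0.9999). Patj, a polarity scaffold, was positive on all 4 with 1.03, 0.70, 1.30 and 1.43 (mean 1.11, SE 0.27; limma unadjusted p = 0.010). Marveld2, encoding tricellulin of the corners between 3 cells, had -0.28, 0.74, 1.85 and 1.44. None of these 3 genes had a clear feature, and with the columns as deposited their means were -0.22, 0.049 and -0.15. In desmosomes 5 of 6 means and in gap junctions 6 of 7 were negative, and the medians of -0.41 and -0.35 became 0.29 and -0.03 with the columns as deposited. Dsc3, encoding the desmosomal cadherin desmocollin 3, had -0.52, -1.32, -0.48 and -0.11 without a clear feature, and Pkp3, encoding plakophilin 3, had -0.83, -1.41, 0.57 and -0.17. Gjc1, encoding connexin 45, had -1.44, -0.85, -0.36 and 0.24. Among 17 regulators and markers of the epithelial state 11 means were negative, with a median of -0.09, or 0.084 with the columns as deposited. This list pools epithelial genes, such as Epcam and Grhl2, with mesenchymal ones, such as Vim and Fn1. These mark opposite states, so the pooled count and median give no direction for the epithelial state. By clear features 4, 4, 4 and 3 of 10 genes were above the median gene on replicates 1 to 4. Elf3, an epithelial transcription factor, had -1.04, -0.95, -0.07 and -1.38 (mean -0.86, SE 0.29; limma unadjusted p = 0.0349; mean 0.31 with the columns as deposited), and Grhl2, a grainyhead-like factor, had -0.09, -2.31, 0.40 and -1.04, both without a clear feature. Fn1, encoding fibronectin, had 0.11, -0.64, -0.63 and -0.46. Vim, encoding vimentin and named as a contrast after its values were seen, had 0.73, 0.76, -1.33 and -0.79. Both Fn1 and Vim had a clear feature. Vim thus lay on the other side from the junction median on replicates 1 to 3.

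The medians of proximal tubule, collecting duct and podocyte markers lay on the side of the junction median on replicates 1, 2 and 3. The 10 proximal tubule markers with a clear feature had a median of -1.90, -1.64, 1.49 and 0.64 on replicates 1 to 4, with 0, 1, 10 and 7 of them above the median gene. The 5 collecting duct markers had -2.05, -0.61, 1.66 and 1.42, with 0, 2, 5 and 5 above it. The 3 thick ascending limb markers, of which Cldn19 is itself a junction gene, had -1.15, 0.71, 0.86 and 0.83, with 0, 2, 3 and 2 above it. The 1 distal tubule marker with a clear feature had 0.03, 0.34, 0.15 and 0.68. The medians of both lists were thus on the other side from the junction genes on replicate 2, although Cldn19 was not. The 3 podocyte markers with a clear feature had -1.24, -0.37, 0.77 and 1.46, with 0, 1, 2 and 3 above the median gene. The 6 endothelial markers had -1.03, -0.65, -0.0017 and 1.13, with 0, 1, 3 and 6 above it. The 1 urothelial marker with a clear feature had -11.1, 5.68, 6.98 and 3.43. T cell markers lay on the other side on replicates 1 to 3, with a median of 0.70, 1.63, -1.39 and 1.43 and with 8, 8, 0 and 8 of 8 above it. Fibroblast markers had 0.50, 0.05, -0.88 and -1.15 over 7 genes. The 6 macrophage markers had 0.57, 0.28, -1.06 and -0.22, with 6, 5, 0 and 1 above the median gene. The fibroblast and macrophage medians were thus also on the other side on replicates 1 to 3. The part of cell composition in the junction ratios was not tested. Skeletal muscle and neural markers, which the labelled tissue should lack, had a clear feature in 0 of 5 and 0 of 4 genes, whereas 10 of 12 proximal tubule markers had one.

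**Figure D4:**
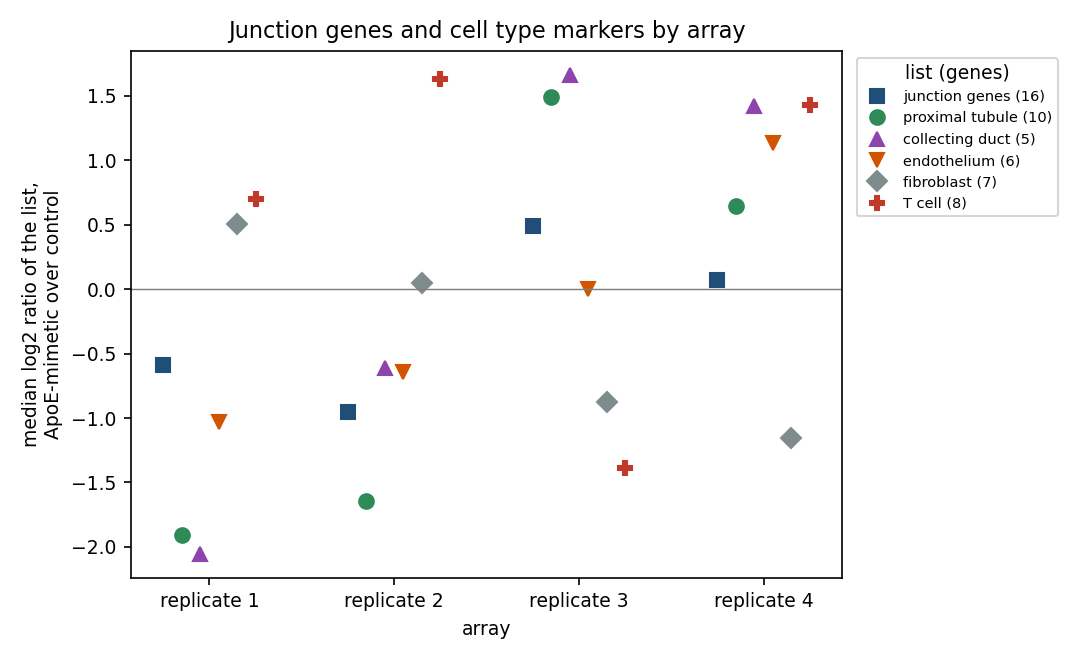
Median log2 ratio, ApoE-mimetic over control relative to the median gene, of the 16 junction genes and of 5 cell type marker lists (genes with a clear feature) on each array. On replicates 1 to 3 the junction median lies on the side of the proximal tubule and collecting duct markers and opposite to T cell markers, and on replicate 4 it is 0.07 while these 3 lists have 0.64, 1.42 and 1.43.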

How the data were processed

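The authors deposited 1 table with a log2 ratio of the channels for each feature of 4 arrays, and per the labels' protocols total RNA was labelled with an Agilent QuickAmp kit. How the arrays were scanned, background-corrected and normalized is not given in the sources used here. Columns were not centred, with medians of the named genes of -0.22, -0.04, -0.11 and -0.55 on replicates 1 to 4. Symbols came from the platform annotation, which gave 1 symbol to 25353 features, several to 48 and none to 19819, and 25306 matched RefSeq (GRCr8) by gene number. Each array was centred on its median named gene, replicates 2 and 4 were turned as for Cy5 over Cy3, and features of 1 gene were averaged. The test was limma's (version 3.58.1 in R 4.3.3; lmFit, eBayes; treatment and dye coefficients) over all named genes with Benjamini-Hochberg adjustment, two-sided. No junction gene had a missing value. The model was tested on simulated data. The members, lists and naming rule were chosen with earlier results of these data known. Per-array values are given for every gene with a clear feature and for Cdh1, Cdh16, Cldn2, Cldn4, Cldn10, Tjp1 and Ocln. Means with SE are given for those 7 and for the 4 genes with a clear feature and the 2 without that had the smallest p. From each other list up to 3 genes are named, in order of p, with means where the unadjusted p was under 0.05. Cdh3, Cdh8, Cdh10, Cdh11, Cldn14, Ctnna1, Vim and genes given only by name fall outside that rule and were chosen after their values were seen. The labels call the replicates biological and say no more of the animals. Alternatives covered the reading of the columns, centring, scaling, the grid trend, features that were not clear and the gene summary. They also covered the dye term, robust moderation, array weights, single features and each replicate left out.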

Additional observations from a re-analysis of the deposited data

Results flagged for a closer look

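Cldn22 on replicate 3, at 2.85, stood far from its values of 0.48, 0.38 and 0.71 on the other arrays. The gap to the nearest of these was 0.867 of the whole range, above Dixon's critical value for 4 samples. Of 20 junction genes checked this was the only 1, and chance flags about 1 in 20. The 1 feature of Cldn22 was not clear.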

How the results depend on the processing

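Under every alternative run, 0 junction genes and 0 genes in all passed in limma. Under those run on genes, 0 of the genes in the lists of other junction components and epithelial regulators did. The number of all genes at an unadjusted p under 0.05 ranged from 103 with clear features alone to 1183 without replicate 2, and was 1744 of 45220 single features. The number of junction genes with 1 sign on all arrays was 3, and it was 5 without centring and 1 among the 16 genes with clear features. With 1 replicate left out, which leaves 3 signs to share, it ranged from 5 to 15. With columns taken as already turned, the mean turned sign in 7 of 12 named genes, to -0.084 in Cdh1, 0.18 in Cldn4, 0.25 in Cldn10, 0.46 in Tjp1, 0.195 in Ocln, 1.32 in Cdh6 and 0.34 in Cldn9. With scaled arrays Tjp1 had 0.030, and with clear features alone Cdh1 had -0.16. With 1 replicate left out, the treatment coefficient, which is then not the plain mean, ranged from -0.94 to 0.39 in Cdh16, from -0.50 to 0.24 in Tjp1 and from -0.40 to 0.24 in Ocln. It ranged from -0.66 to 0.080 in Cldn4, from -0.11 to 0.58 in Cdh1 and from -0.038 to 0.39 in Cldn2. The other 6 named genes kept their sign there, among them Cldn22 from 0.52 to 1.70 and Cdh13 from -1.51 to -0.44. The cause of these shifts was not tested. Centring replicate 4 within each grid column, tried on means over all features and not on clear features alone, turned Cldn1 to 0.18 and Cldn7 to 0.046 there and kept the sign of the other 14 genes that have a clear feature. Each array holds a pair, so the test is paired by array and no further block by replicate applies.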
